A study of Oryctolagus cuniculus with 2 samples.

Results

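The deposited cell table of this single-nucleus RNA sequencing study of rabbit retina gives every nucleus a rod score and a cone score, 2 of the 9 module scores it holds. Both scores are described here over all 6542 nuclei of 6542, by annotated cell type (7 types), by cluster (26 clusters), by library and by the number of unique molecular identifiers (UMIs, the counted RNA molecules) per nucleus. The wild-type library held 3484 nuclei and the CLRN1 knockout library 3058; CLRN1 encodes clarin-1, a membrane protein needed in photoreceptors and hair cells and mutated in an Usher syndrome. Each library pooled nuclei from 3 rabbits aged 10 months, from 5 mm punches of the visual streak taken 2 to 3 mm below the medullary rays. The sources used here give neither the strain nor the way the knockout was made. Each genotype is 1 library of 1 pool, so a difference between genotypes and one between libraries or pools cannot be told apart. Nuclei from the same library do not count as replicates; no test was made, and no values per animal are given. Intervals are exact (Clopper-Pearson) 95% intervals of a share and cover counting error only.

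Rods are the photoreceptors of dim light and the most numerous neurons of most mammalian retinas; cones work in brighter light and serve colour and fine detail. A mature photoreceptor normally expresses either the rod or the cone versions of the proteins that turn light into an electrical signal, which makes the pair of scores a measure of how far a nucleus carries either program or both. A module score is the mean log-scale expression of a list of genes minus that of comparison genes of similar abundance. It has no true zero, so differences are given and no folds, and a nucleus with a score below 0 expressed the list less than its comparison genes. The genes behind the lists were not used here, so none is named.

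Total UMIs were 6916018 in the wild-type and 8233524 in the knockout library, with medians of 1175.5 and 1552.5 per nucleus, and 5 cell barcodes occurred in both libraries. Scores of sparse nuclei move with depth, and the counts were not tied to nuclei here, so nuclei could not be thinned to a common depth. Values are therefore also given within 4 ranges of UMIs per nucleus, divided at 1000, 2000 and 4000, each range including its lower bound. No doublet caller was run, and the sources used here do not say how the submitters treated doublets. Cell types and clusters come from the same nuclei as the scores, and the sources used here do not say whether the scores served in the annotation. A higher score in its own type is therefore a description.

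Each score was highest in the cell type it is named for. In nuclei annotated as rods (2237 wild-type and 2059 knockout), the median rod score was 1.11 in the wild-type and 1.26 in the knockout library, and over both libraries it ran from −0.87 to 3.83. In nuclei annotated as cones (182 and 123), the median cone score was 1.09 and 1.11, against −0.10 and −0.11 in rods. The cone score was below 0 in 81.8% of rods and in 0.656% of cones. Among bipolar, horizontal, amacrine and ganglion cells and Müller glia, 80.6% to 97.2% of each type were below 0. The rod score was less bound to its type: it was below 0 in 5.54% of rods, 19.7% of cones and 59.8% of the nuclei of the other 5 types.

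**Figure D1:**
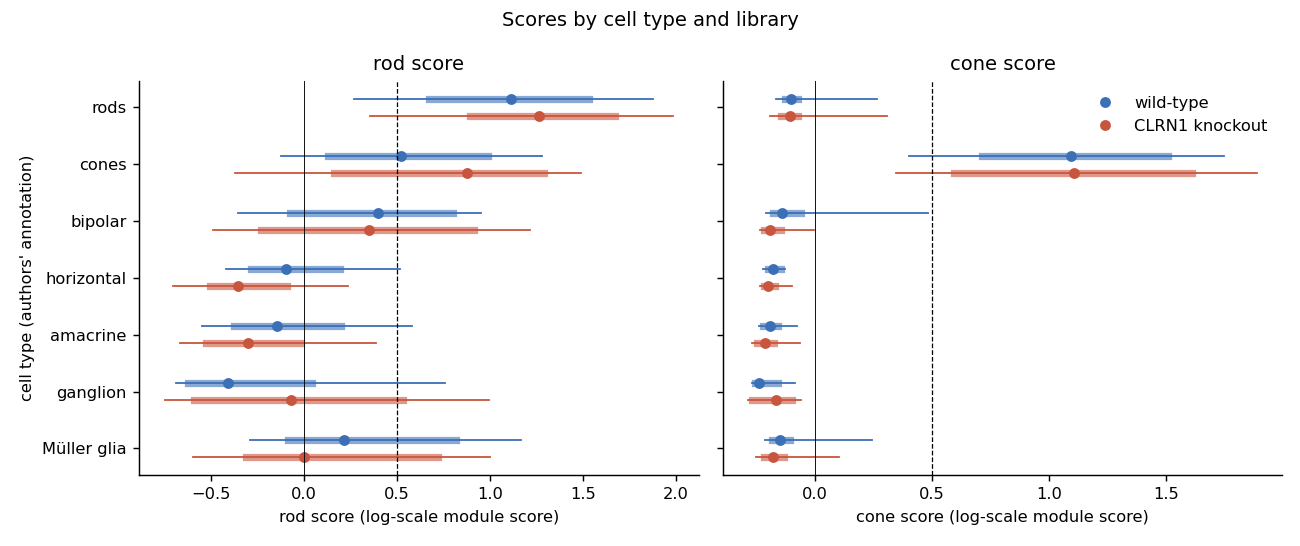
Rod score (left) and cone score (right) on the log-scale module score, by annotated cell type, for the wild-type and CLRN1 knockout libraries. Points are medians, thick bars the middle 50% and thin bars the 10th to 90th percentile of nuclei, and the dashed line marks 0.5; the rod score of cones spreads across that line in both libraries, while the median cone score is below 0 in every type but cones, with upper bars reaching 0.48 in wild-type bipolar cells and 0.31 in knockout rods.

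A nucleus was called high for a score above 0.5. This limit cuts a range and does not define a cell type: 411 nuclei (6.28%) lay within 0.1 of it for the rod score and 170 (2.60%) for the cone score. Only the rod score was high in 3883 nuclei (59.4%), only the cone score in 180 (2.75%), both in 281 (4.30%, interval 3.82% to 4.82%) and neither in 2198 (33.6%). Over all cell types together, only the wild-type library showed a difference beyond counting error in how the scores met. In the wild-type library the cone score was high in 6.16% of nuclei with a high rod score (5.18% to 7.26%) and in 9.17% of the rest (7.68% to 10.8%). Among knockout nuclei it was high in 7.37% (6.27% to 8.60%) and 5.50% (4.19% to 7.06%), with overlapping intervals. Nuclei high for both were 132 of the wild-type library (3.79%, 3.18% to 4.48%) and 149 of the knockout library (4.87%, 4.14% to 5.70%), and the intervals overlap. Cluster 2, a rod cluster, held 29 of the 132 and 75 of the 149, and the 7.37% of the knockout library includes those 75. With cluster 2 left out, an alternative added after the data were seen, the shares high for both were 3.31% and 2.82%.

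Rods made up 133 (47.3%) and cones 119 (42.3%) of the 281 nuclei high for both scores. The other 29 were 12 bipolar, 6 amacrine, 6 Müller glia, 4 ganglion and 1 horizontal cell. Of the 180 nuclei high for the cone score alone, 128 (71.1%) were cones and 32 were rods. Median UMIs were 2735 in nuclei high for both, 1742.5 in those high for the cone score alone and 919 in those high for the rod score alone. Nuclei high for neither had 2565.5. By library, nuclei high for both had a median of 4462 UMIs in the knockout and 1877.5 in the wild-type library, where nuclei high for neither were deeper, at 2305.5. The part of droplets holding 2 nuclei in the class high for both was not tested.

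**Figure D2:**
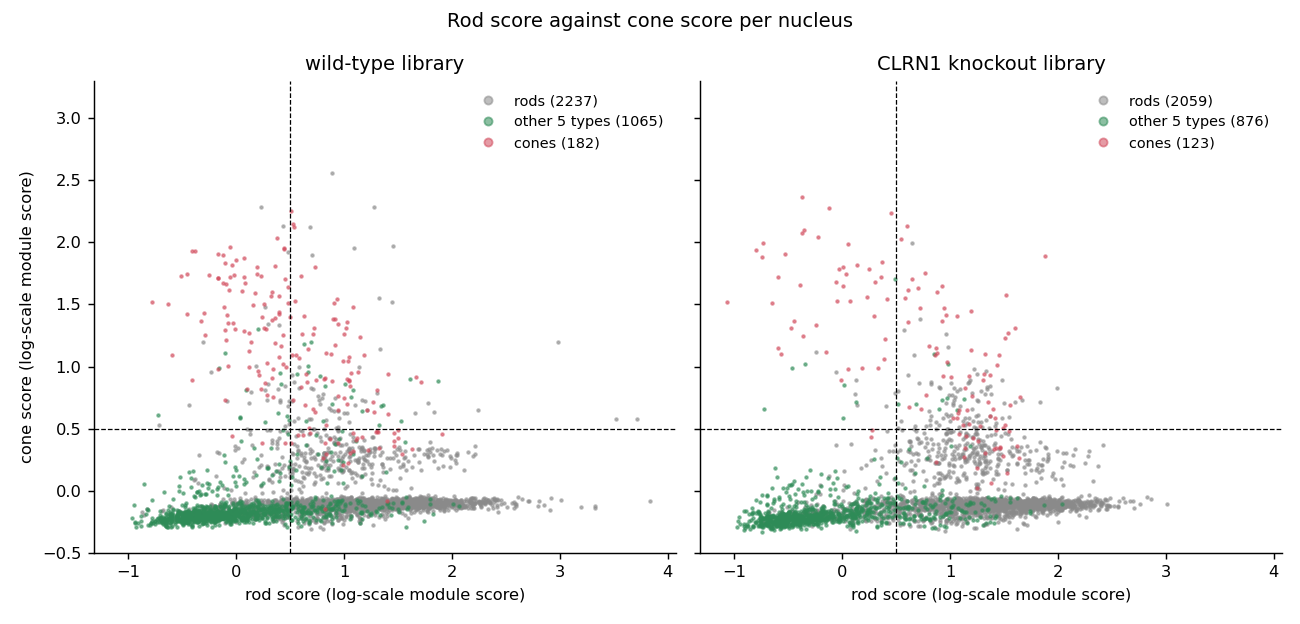
Each point is a nucleus, with its rod score on the horizontal and its cone score on the vertical axis (both log-scale module scores), for the wild-type (left) and CLRN1 knockout (right) library; dashed lines mark 0.5. Rods form a band below a cone score of 0, cones run from high cone and low rod scores down to the right, and 281 nuclei lie above both lines.

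Cones were the type with the largest share of nuclei high for both scores. Even so, the cone score was high in fewer of the cones with a high rod score, 69.2% (61.7% to 76.0%), than of the rest, 96.2% (91.4% to 98.8%). The rod score was high in 56.4% of the 305 cones and the cone score in 81.0%. Both were high in 39.0% (33.5% to 44.7%), the cone score alone in 128, the rod score alone in 53 and neither in 5. The 96.2% rests on how few nuclei high for neither score were annotated as cones. The part of the annotation in this contrast was not tested. The rod score was the highest of the 8 cell type scores in 35.4% of cones, and the cone score in 63.6%. Within 0.1 of the limit lay 28 cones for the rod score and 34 for the cone score. The 305 cones were the whole of cluster 4. Cone label and cluster are thus the same set, so their sharing 1 cluster does not show whether clustering separated nuclei by rod score.

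Within cones the scores ran against each other. Cones with a rod score of 0 or below (60 nuclei) had a median cone score of 1.57, those above 0 to 0.5 (73 nuclei) 1.41, those above 0.5 to 1 (73 nuclei) 1.09 and those above 1 (99 nuclei) 0.60. In the wild-type library the 4 steps gave 1.51, 1.38, 0.91 and 0.64 at similar depths, with median UMIs of 1462.5, 1308, 1412 and 1355. In the knockout library they gave 1.67, 1.56, 1.39 and 0.59, but there the last step was deeper, with medians of 1892, 1441, 1919.5 and 3724.5 UMIs. Within ranges of UMIs holding at least 30 cones, Spearman's rho between the scores was −0.52 (n = 38, under 1000 UMIs), −0.58 (n = 101, 1000 to 2000) and −0.72 (n = 35, 2000 to 4000) in the wild-type library. In the knockout library it was −0.57 (n = 46, 1000 to 2000) and −0.71 (n = 42, 2000 to 4000). These correlations are descriptions across nuclei that share a library and an annotation, and both scores of a nucleus are scaled to its same total. In rods, rho within ranges of UMIs lay between −0.10 and 0.25 in the wild-type and between −0.04 and 0.23 in the knockout library.

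**Figure D3:**
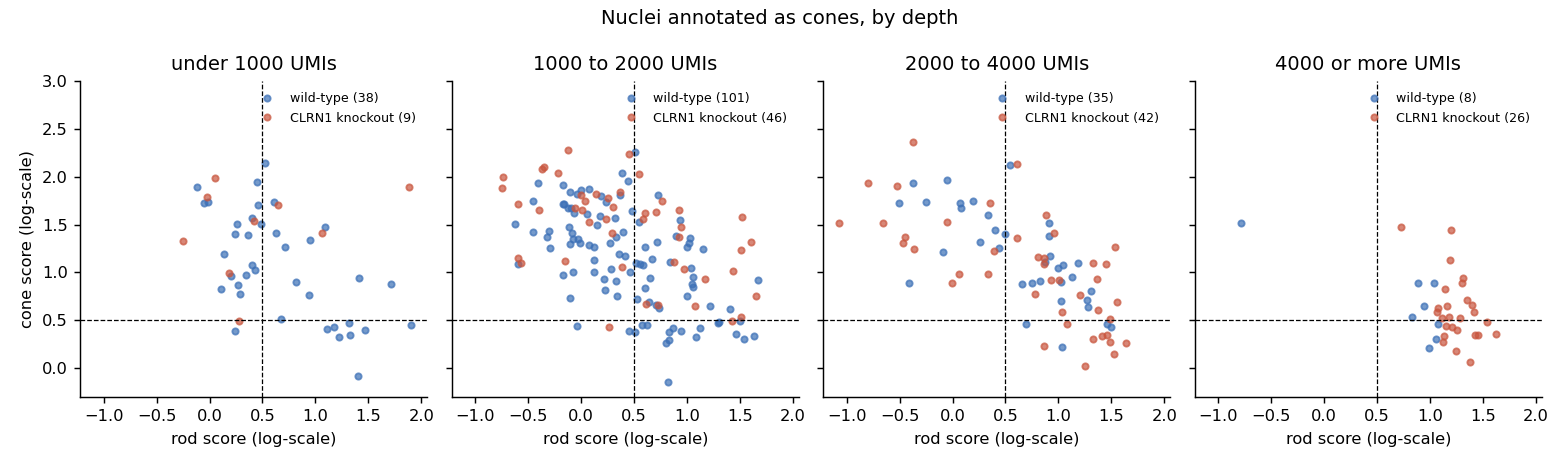
Rod score (horizontal) against cone score (vertical), both log-scale, in the nuclei annotated as cones, in 4 ranges of UMIs per nucleus; blue points are wild-type and red points CLRN1 knockout nuclei, with their number in each panel, and dashed lines mark 0.5. In the 3 ranges below 4000 UMIs the points fall from upper left to lower right, and at 4000 or more UMIs 33 of 34 lie right of the line.

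The rod score of cones was highest in the deepest nuclei, most of which were knockout nuclei. Spearman's rho between rod score and UMIs was −0.01 in the 182 wild-type and 0.47 in the 123 knockout cones, and for the cone score it was 0.04 and −0.57. In wild-type cones the rod score was high in 19 of 38 nuclei under 1000 UMIs, 47 of 101 at 1000 to 2000 and 21 of 35 at 2000 to 4000. Over both libraries it was high in 46.8% of cones under 1000 UMIs, 46.3% at 1000 to 2000, 63.6% at 2000 to 4000 and 97.1% (84.7% to 99.9%) at 4000 or more. At 4000 or more UMIs all 26 knockout cones were high for the rod score (interval from 86.8%), and 7 of 8 wild-type cones. Their cone score was lower: it was high in 58.8% of the cones of that range (40.7% to 75.4%) against 85.7% at 1000 to 2000 UMIs (79.0% to 90.9%). Only 1 of the 34 deepest cones was high for the cone score alone, against 76 of 147 at 1000 to 2000 UMIs.

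Between the libraries, both scores were high in 34.1% of wild-type cones (27.2% to 41.4%) and 46.3% of knockout cones (37.3% to 55.6%), which overlap. The median rod score of cones was 0.52 (wild-type) and 0.88 (knockout), which differ by 0.36. The cones also differed in depth, and 26 knockout but 8 wild-type cones had 4000 or more UMIs. Within the 2 ranges with at least 10 cones of each library, the knockout median was 0.07 lower at 1000 to 2000 UMIs (0.38 against 0.45) and 0.13 higher at 2000 to 4000 (0.87 against 0.75). Weighted over these ranges the difference was 0.02. For the cone score, the knockout median was 0.40 higher in the first range (1.57 against 1.17) and 0.07 lower in the second (1.04 against 1.10). Neither score of cones thus differed in the same direction in both ranges.

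Among rods, a high cone score was uncommon and sat in few clusters. It occurred in 165 of 4296 rods (3.84%, 3.29% to 4.46%), of which 133 were also high for the rod score. Cluster 2 held 129 of them, among its 813 nuclei (15.9%, 13.4% to 18.6%), and cluster 3 held 27 among 352 (7.67%, 5.12% to 11.0%). Clusters 0 and 1, the main rod clusters, held 5 of 1501 (0.333%) and 4 of 1229 (0.325%). Clusters 9, 10 and 16 held 0 of 401, which allows a share of up to 0.748%. These 3 clusters, though annotated as rods, also had low rod scores, with medians of −0.02, 0.15 and 0.04, and only 21.7% of their nuclei were high for the rod score.

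Cluster 2 differed from the other rod clusters in depth as well as in both scores. Its median was 3968 UMIs, while those of clusters 0, 1 and 3 were 663, 1027 and 776. Its median rod score was 0.87, below the 1.34, 1.41 and 1.34 of clusters 0, 1 and 3, and its median cone score was 0.12, where these clusters had −0.09, −0.12 and −0.10. Its cone score was below 0 in 42.8% of nuclei, against 93.1%, 90.7% and 79.0%. Within the cluster, 348 nuclei had a cone score below 0, 336 from 0 to 0.5 and 129 above 0.5, with median UMIs of 2499.5, 5905.5 and 5372. The median rod score of these 3 groups was 0.60, 0.78 and 0.58 among wild-type nuclei, whereas knockout nuclei had 0.92, 1.08 and 1.09. The steady fall of 1 score with the other that cones showed was thus not seen in cluster 2.

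The share of rods with a high cone score rose with depth in both libraries. In the wild-type library it was 1.48% under 1000 UMIs, 1.58% at 1000 to 2000, 8.73% at 2000 to 4000 and 17.9% (12.1% to 24.9%) at 4000 or more. In the knockout library it was 0.740%, 0.755%, 5.72% and 21.7% (17.0% to 26.9%). The libraries' intervals overlap in each range. Of the 437 rods with 4000 or more UMIs, 404 belonged to cluster 2, and the other 33 held 0 high cone scores, which allows up to 9.09%. In cluster 2 at that depth the share was 22.0% (18.1% to 26.4%). At 2000 to 4000 UMIs, 34 of the 37 rods with a high cone score were among the 253 nuclei of cluster 2, out of 526 rods. Within cluster 2 the share was 6 of 131 nuclei at 1000 to 2000 UMIs (4.58%, with an upper bound of 9.70%) and 13.4% (9.49% to 18.3%) at 2000 to 4000. The interval at 2000 to 4000 UMIs overlaps that at 1000 to 2000 and that at 4000 or more. Those at 1000 to 2000 and at 4000 or more UMIs do not overlap.

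**Figure D4:**
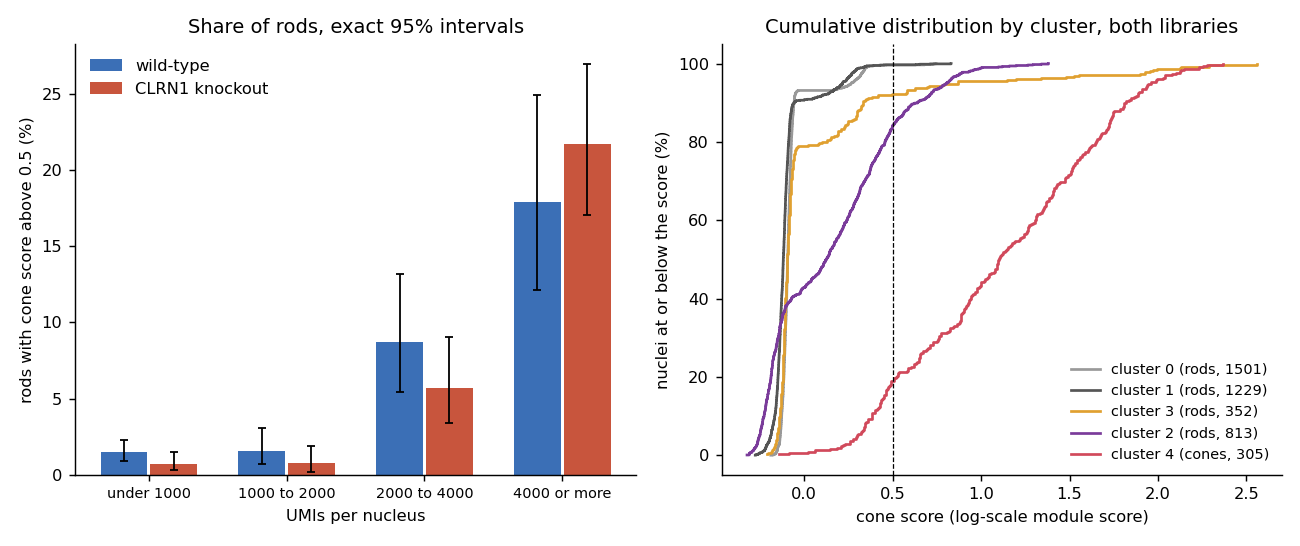
Left, the percentage of rods with a cone score above 0.5 by UMIs per nucleus, for each library, with exact 95% intervals as error bars; right, the cumulative percentage of nuclei against the cone score in rod clusters 0 to 3 and in the cone cluster 4, both libraries together. The share climbs to 17.9% and 21.7% in the deepest range, and the curve of cluster 2 lies between those of the other rod clusters and that of the cones at scores from 0 to 0.5.

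The rods high for both scores were 50 in the wild-type library (2.24%, 1.66% to 2.94%) and 83 in the knockout library (4.03%, 3.22% to 4.97%), shares whose intervals do not overlap. Within each range of UMIs they do: at 4000 or more the shares were 12.6% (7.75% to 19.0%) and 21.0% (16.4% to 26.2%), and that range held 151 wild-type and 286 knockout rods. Median UMIs of these rods were 2777 and 6157, against 814.5 and 971 for rods high for the rod score alone. Rods high for the cone score alone went the other way, with 25 in the wild-type (1.12%, 0.725% to 1.65%) and 7 in the knockout library (0.340%, 0.137% to 0.699%). Of these, 20 and 5 were in cluster 2, where the rod score was high in 66.2% of wild-type and 87.0% of knockout nuclei. With either rod score, a high cone score occurred in 3.35% of wild-type rods (2.65% to 4.18%) and 4.37% of knockout rods (3.53% to 5.35%), which overlap.

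The strongest cone scores among rods were mostly in the shallow cluster 3 in the wild-type library, but not in the knockout library. A cone score above 1 occurred in 25 rods, of which 16 were in cluster 3 and 9 in cluster 2. Of these 25, 18 were wild-type and 7 knockout nuclei, and of the 16 in cluster 3 the wild-type library had 15 of 220 nuclei (6.82%, 3.87% to 11.0%) and the knockout library 1 of 132 (0.758%, 0.0192% to 4.15%). The 18 wild-type nuclei had a median of 728.5 UMIs, 3.38% mitochondrial counts and a general photoreceptor score of 1.37. The 7 knockout nuclei had 4469 UMIs, 0.0594% and 0.34. Over all nuclei the median mitochondrial share was 0.114% in the wild-type and 0.115% in the knockout library; the part of mitochondrial RNA in these scores was not tested.

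Over all rods, the rod score was higher in the knockout library at each depth. The medians were 1.30 and 1.46 under 1000 UMIs, 0.97 and 1.35 at 1000 to 2000, 0.52 and 0.87 at 2000 to 4000, and 0.77 and 1.05 at 4000 or more, for wild-type and knockout. The middle 50% of nuclei overlapped in each range, for example 0.92 to 1.67 and 1.09 to 1.84 under 1000 UMIs. Over the ranges the weighted difference was 0.26, larger than the 0.15 without regard to depth. This held in clusters 0, 1 and 2, with weighted differences of 0.17, 0.21 and 0.30. Cluster 3 differed by −0.01, with 1 range in each direction. Clusters 9, 10 and 16 together, without regard to depth, had medians of 0.13 (wild-type) and −0.04 (knockout). Their nuclei differed in depth, with median UMIs of 1510.5 and 2076, and in make-up, as cluster 16 held 2 wild-type and 76 knockout nuclei. No difference within ranges was made for these 3 clusters. Over all rods the median cone score differed by no more than 0.0090 in any range, with medians of 0.27 and 0.28 at 4000 or more UMIs. With no replicate library, whether this difference in rod score exceeds that between any 2 pools of rabbits was not tested.

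Outside the photoreceptors, a high rod score was common and a high cone score rare. Among the 1941 nuclei of the other 5 types, the rod score was high in 348 (17.9%, 16.2% to 19.7%) and the cone score in 49 (2.52%, 1.87% to 3.32%). By library the rod score was high in 19.1% of wild-type and 16.6% of knockout nuclei, and the cone score in 3.10% and 1.83%, both with overlapping intervals. Bipolar cells, which receive the photoreceptors' signal, had the highest shares, with 42.8% for the rod and 7.66% for the cone score. Müller glia, the supporting cells that span the retina, followed with 36.2% and 6.49%. Ganglion cells, whose axons form the optic nerve, differed by library for the rod score, with 12.2% of wild-type (7.37% to 18.5%) but 26.1% of knockout nuclei (19.8% to 33.3%), and had 1.23% for the cone score. Amacrine cells, inhibitory neurons of the inner retina, had 10.2% and 1.36%, and horizontal cells, which feed back onto photoreceptors, 9.39% and 1.10%. The intervals of bipolar cells and Müller glia overlap for both scores, as do those of amacrine and horizontal cells.

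Clusters of 1 type differed widely in their rod score. Of the ganglion cell clusters, the rod score was high in 2.30% of cluster 7 (0.752% to 5.29%) and 55.1% of cluster 14 (45.2% to 64.8%). Of the ganglion nuclei, 26 of 148 in the wild-type library belonged to cluster 14, but 81 of 176 among knockout nuclei, so the libraries' ganglion cells differed in cluster make-up. Within cluster 14 the rod score was high in 17 of 26 wild-type and 42 of 81 knockout nuclei. In cluster 7 it was high in 1 of 122 and 4 of 95, and in both clusters the libraries' intervals overlap. The libraries' ganglion cells differed in median mitochondrial share too, at 0.235% and 0.845%. The part of mitochondrial RNA in the rod score was not tested. Among amacrine clusters, cluster 15 reached 38.2% (28.1% to 49.1%) for the rod and 5.62% (1.85% to 12.6%) for the cone score. Bipolar nuclei with a high rod score but no high cone score had a median bipolar score of 0.56, against 0.84 in those high for neither. The rod score was the highest of the 8 cell type scores in 30.2% of bipolar, 24.9% of Müller glia and 13.7% of amacrine nuclei.

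In these types the share with a high rod score fell with depth. Over both libraries it was high in 53.3% of their nuclei under 1000 UMIs (45.4% to 61.0%), 26.6% at 1000 to 2000, 12.1% at 2000 to 4000 and 9.20% (6.81% to 12.1%) at 4000 or more. Under 1000 UMIs the share in cones, 46.8% (32.1% to 61.9%), lay within counting error of this background. The make-up of the background changed with depth, however: 83 of the 169 nuclei under 1000 UMIs were ganglion cells, all of cluster 14, and 59.0% of these had a high rod score. At 2000 to 4000 UMIs the cones' 63.6% (51.9% to 74.3%) stood well above the 12.1% (10.0% to 14.5%). That background held 337 wild-type and 259 knockout amacrine nuclei, with median rod scores of −0.20 and −0.26. The 60 and 43 bipolar nuclei of that range came closer to cones, with medians of 0.27 (wild-type) and 0.32 (knockout) against 0.75 and 0.87. The cone score in the other 5 types showed no such course, being high in 1.18%, 3.26%, 2.41% and 2.60%. Rods exceeded this background only in the deeper ranges: under 1000 UMIs 1.18% of rods (0.776% to 1.71%) were high for the cone score against 1.18% (0.144% to 4.21%), and at 4000 or more 20.4% (16.7% to 24.5%) against 2.60% (1.39% to 4.41%).

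**Figure D5:**
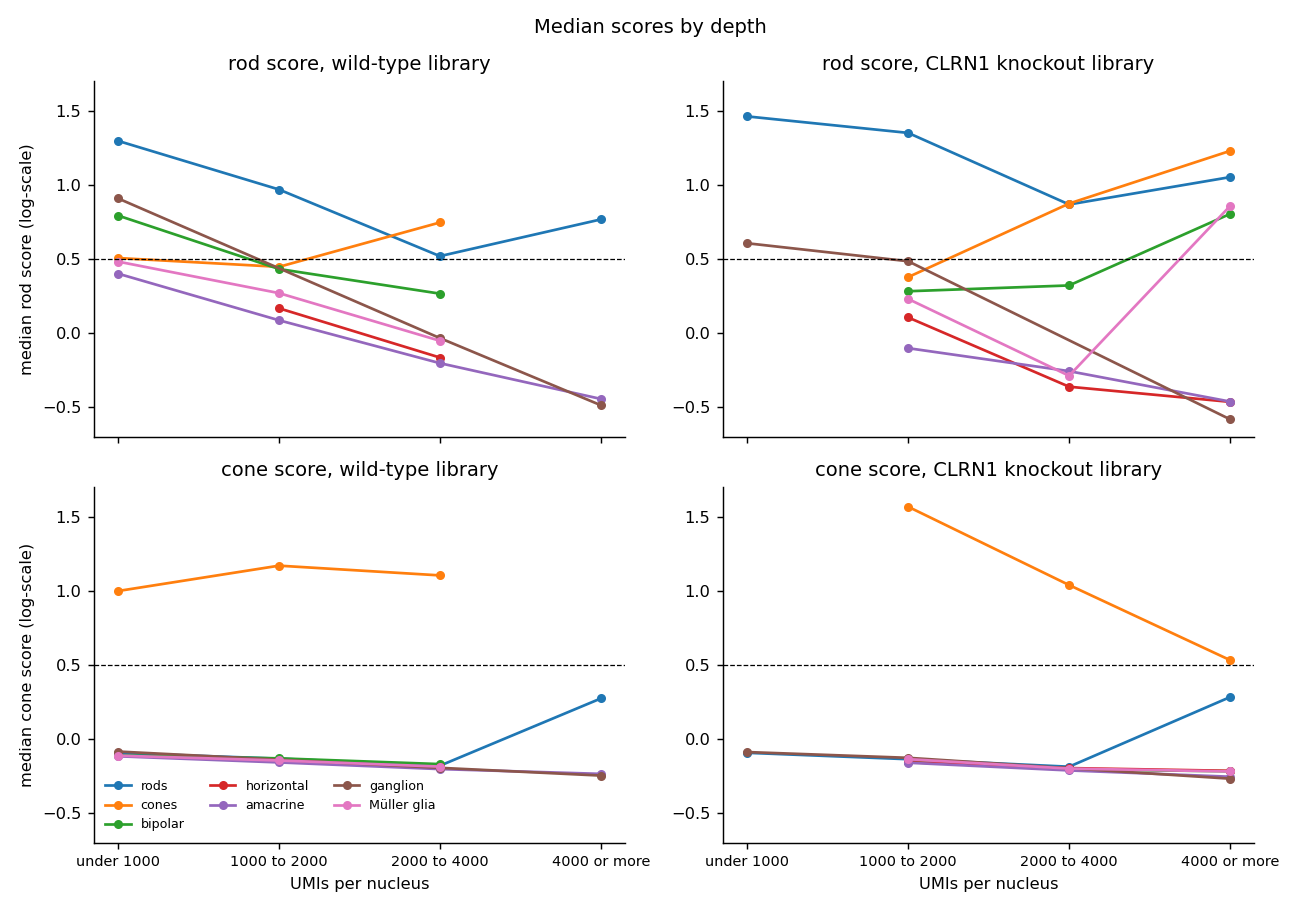
Median rod score (top) and cone score (bottom), on the log-scale module score, by UMIs per nucleus and annotated cell type, for the wild-type (left) and CLRN1 knockout (right) library; points are ranges with at least 10 nuclei, joined by lines, and the dashed line marks 0.5. The rod score of amacrine and ganglion cells falls from left to right while that of knockout cones climbs from 0.38 to 1.23, and the cone score of rods lifts from the others only at 4000 or more UMIs.

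Some deep nuclei departed from this fall. At 4000 or more UMIs, all 11 knockout Müller glia were high for the rod score, with a median of 0.86, and 6 of 8 wild-type ones; at 2000 to 4000 UMIs the medians were −0.29 and −0.05. Knockout bipolar nuclei had a median rod score of 0.80 at 4000 or more UMIs (n = 12) and 0.32 at 2000 to 4000 (n = 43). Amacrine and ganglion cells of that depth stayed low, with medians from −0.58 to −0.44 in the 2 libraries.

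In the other 5 types together, the cone score was high in 8.33% (5.65% to 11.7%) of their nuclei with a high rod score and in 1.26% (0.769% to 1.93%) of the rest. These types differ in both shares, and within most of them the intervals overlap: the shares were 12.6% (6.70% to 21.0%) and 3.94% (1.29% to 8.95%) in bipolar cells and 8.96% (3.36% to 18.5%) and 5.08% (1.89% to 10.7%) in Müller glia. Knockout Müller glia went the other way, with 0 of 19 and 3 of 35. With the libraries pooled, intervals were apart in amacrine cells, at 6 of 105 and 8 of 924, and in ganglion cells, at 4 of 64 and 0 of 260. Within each library they overlapped in both types. They also overlapped within amacrine cluster 15, at 4 of 34 and 1 of 55, and within ganglion cluster 14, at 2 of 59 and 0 of 48.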

How the data were processed

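Nuclei of 2 libraries (10x 3' chemistry) were measured, and the deposited cell table gives, per nucleus, UMI counts and genes as whole-number counts, mitochondrial counts in percent, cluster and cell type as deposited by the authors, and module scores on a log scale; the score columns carry the form of Seurat's module score, per the file headers. Cell Ranger 7.0 and Seurat 4.3.0 are named in the submitters' processing notes. The sources used here do not give the gene lists behind the scores, the filters or any doublet removal. The deposited count matrix carries numbers in place of gene and nucleus names and was not used, so no gene is named. The labels say nuclei were assigned to animals; that assignment was not used here.

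Medians, quartiles and shares above 0.5 were computed in Python 3.11.15 with pandas 2.3.3 and SciPy 1.17.1, overall and within 4 ranges of UMIs. Differences between libraries within ranges are knockout minus wild-type medians, over ranges with at least 10 nuclei in each library. Each range was weighted by the number of nuclei in the library that had fewer there. Correlations needed 30 nuclei. The functions were tested on simulated data. No test between genotypes was possible with 1 library each. The limit of a count of 0 is 3 counts of the total. The scores, groupings and limits were chosen with earlier results of these data known.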

Additional observations from a re-analysis of the deposited data

Results flagged for a closer look

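Within ranges of UMIs, the rod score was higher in the knockout than in the wild-type library in rods, by a weighted difference in medians of 0.26, and in each of the 4 ranges. It was lower in 4 other types: by −0.17 in horizontal cells, −0.068 in amacrine cells, −0.14 in ganglion cells and −0.17 in Müller glia, in every range with at least 10 nuclei of each library. These types drew attention because the libraries differ in opposite directions in them and in rods. The difference between types was not tested, since each genotype is 1 library. Not all values for these types point downwards. Müller glia with 4000 or more UMIs, under 10 nuclei in the wild-type library, had medians of 0.66 (wild-type) and 0.86 (knockout). Without regard to depth, ganglion cells had medians of −0.41 (wild-type) and −0.07 (knockout); of these nuclei, 26 of 148 (wild-type) and 81 of 176 (knockout) belonged to cluster 14, where high rod scores were common. Rod clusters 0, 1 and 2 were higher in the knockout library, and cluster 3 differed by −0.01.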

How the results depend on the processing

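Of 62 alternative values, 33 moved by less and 29 by more than the interval over nuclei of the main value. For the 8 values of correlations, the spread of the main value over ranges of UMIs took the place of that interval. No difference or correlation changed sign, and a share cannot. The share of nuclei high for both scores (3.79% wild-type, 4.87% knockout) was 10.8% and 11.5% with the limit at 0.25, 0.431% and 0.360% at 1, 1.81% and 2.62% with the lower quartiles of each score's own type as limits (0.77 and 0.65), and 5.15% and 6.95% with at least 1000 UMIs. The knockout share was 2.82% without cluster 2 and 2.74% under 4000 UMIs, alternatives added after the data were seen, where the wild-type shares were 3.31% and 3.39%; the order of the libraries thus turned in these and at a limit of 1. The share of other types with a high rod score (19.1% and 16.6%) was 29.95% and 23.6% at 0.25, 5.82% and 6.05% at 1, 11.6% and 10.7% with own-type limits, 15.8% and 13.1% with at least 1000 UMIs, and, in the knockout library, 13.4% under 1% mitochondrial counts. Their share with a high cone score (3.10% and 1.83%) was 4.88% at 0.25 and 1.97% with own-type limits in the wild-type library, and 0.469% and 0.457% at 1. The knockout-minus-wild-type difference in the rod score of rods (0.15) was 0.26 within 4 and 0.27 within 8 ranges of UMIs, and that of their cone score (−0.0055) was −0.00063 within 4. The difference in the rod score of cones (0.36) was 0.016 within 4 ranges, 0.081 within 8 and 0.10 under 4000 UMIs, the last added after the data were seen. The cause was not tested, beyond the depth each alternative sets. No paired analysis was possible because each genotype has 1 library, and no replicate could be left out. Cones of the wild-type library with 4000 or more UMIs numbered 8, which limits what their shares can show.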
